A study of Mus musculus with 2 samples.

Results

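Lyve1 Cd163 resident macrophages are a minor set of macrophages in the epididymal fat of obese mice, here 209 of 15374 cells. They were picked from a single-cell table by their own transcripts. A macrophage had at least 20 counts per 10000 of Cd68, C1qa and C1qb summed, under 10 per 10000 of the fibroblast genes Dcn and Lum, and fewer than 2 of the endothelial genes Cdh5, Kdr and Cldn5. Of the 7866 macrophages so gated, the 209 (2.66%, exact Clopper-Pearson 95% interval 2.31 to 3.04) had a count of at least 3 of the 6 genes Lyve1, Cd163, Cbr2, Cd209f, Cd209d and Ccl8. The levels of these 6 genes chose the cells and are given as a description only.

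The cells came from the stromal vascular fraction, the non-adipocyte cells freed by digesting fat, of wild-type and Mincle-deficient C57BL/6J males. A high-fat diet had been fed to all animals during 15 weeks, so the series holds no lean group. Suspensions stained with hashtag antibodies were pooled, and the pool gave 1 library of transcripts and 1 of hashtags. Cell names carry 4 hashtags, A0309, A0310, A0311 and A0312. The labels tie none of them to a genotype and do not give the number of mice behind each. The genotypes were therefore not compared, no test was run, and hashtags are shown side by side. All intervals cover counting error only. The sources used here do not say if reads or molecules were counted.

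Resident tissue macrophages settle around vessels and in connective tissue, take up proteins, sugars and dying cells, and in many organs carry the hyaluronan receptor Lyve1 and the haemoglobin scavenger receptor Cd163. In obese fat they stand beside lipid-associated macrophages, which gather around dying adipocytes, engulf lipid and express Gpnmb, Trem2 and Itgax. Clec4e encodes Mincle, a lectin receptor on myeloid cells, where it binds glycolipids of mycobacteria and signals released by dead cells.

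The library held 651658017 counts over 15741 cells, including 367 that the authors named doublets and that were left out here. All 209 resident macrophages were also in the hashtag table, and 188 met a stricter rule of at least 10 tag counts with 75% from a single hashtag. Among doublet-named cells, 20 passed the macrophage gate and 2 of them met the rule of 3 genes. Low counts of 68 genes had been set to 0 before deposit, among them Apoe, C1qa, C1qc, Cd68, Cd74, Ctsb, Ctsk, Gpnmb, Lpl, Mfge8 and Selenop. Low levels of these genes are therefore understated in shallow cells.

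Resident macrophages were sequenced less deeply than the rest. Their median was 30141 counts and 4162 genes per cell, against 40191 counts and 4758 genes in the 7657 other macrophages. The part of this depth gap in the values below was not tested except where a value against other macrophages of like depth is given, meaning those between 15197 and 50778 counts, the middle range of the resident macrophages.

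The number of the 6 genes seen in a cell fell steeply and then levelled off. Among gated macrophages, 5607 had none, 1664 had 1, 386 had 2 and 110 had 3. A further 36 had 4, 31 had 5 and 32 had all 6. The groups with 4, 5 and 6 genes were thus nearly equal in size.

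**Figure D1:**
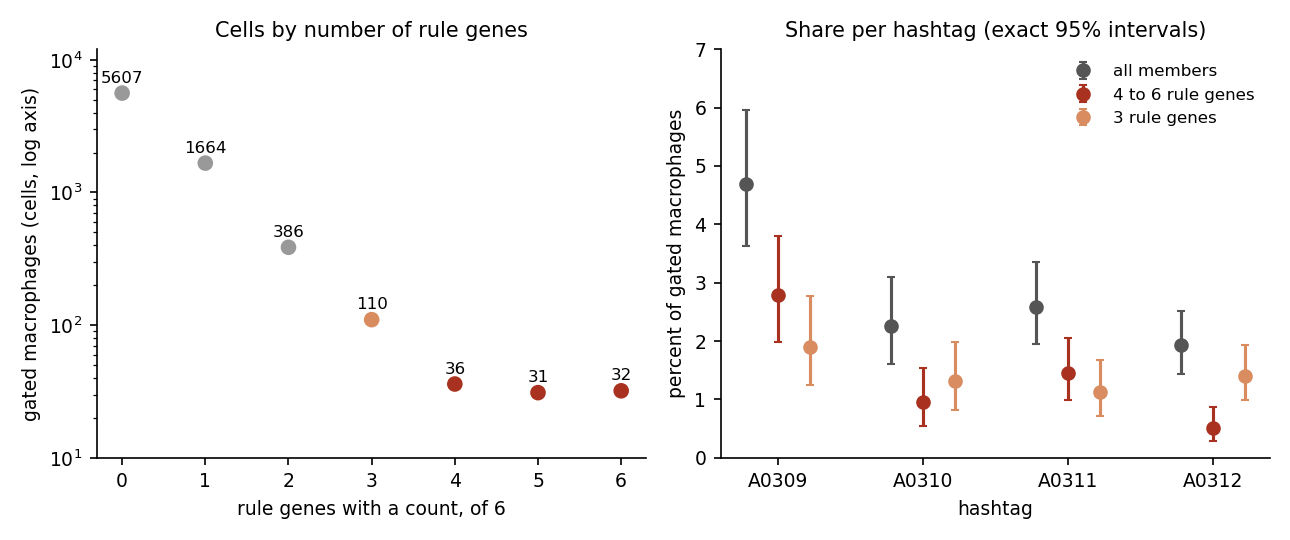
Left, number of gated macrophages (log axis) by how many of the 6 rule genes had a count; right, percent of gated macrophages per hashtag with exact 95% intervals. Counts fall from 5607 to 110 cells between 0 and 3 genes and stay between 31 and 36 cells from 4 to 6, and A0309 has the highest share.

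The 3-gene and the 4-to-6-gene cells differed in depth. The 110 cells with 3 rule genes had a median of 38970.5 counts, near the 40191 of other macrophages. The 99 cells with 4 to 6 had 19575, with 7.05% of counts from mitochondrial genes against 4.43% in cells with 3 genes and 4.70% in other macrophages. Cells with 4 to 6 genes were 2.95% of the 1967 shallowest macrophages and 0.407% of the 1967 deepest. When every cell was thinned to 10000 counts, 116 of 7589 macrophages met the rule. All were among the 209, as they had to be, since thinning only removes counts. Of the 80 cells with 4 to 6 genes that were deep enough, 76 still met it. The rest of the 116 came from the 102 cells with 3 genes that were deep enough.

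Hashtag A0309 had the highest share of resident macrophages. They were 64 of 1364 macrophages (4.69%, 3.63 to 5.95) with A0309, 38 of 1677 (2.27%, 1.61 to 3.10) with A0310, 55 of 2128 (2.58%, 1.95 to 3.35) with A0311 and 52 of 2697 (1.93%, 1.44 to 2.52) with A0312. The counting interval of A0309 did not overlap the others. The cells with 4 to 6 genes made most of the spread, from 2.79% (1.98 to 3.80) of macrophages with A0309 to 0.519% (0.284 to 0.869) with A0312. Cells with 3 genes ranged from 1.13% with A0311 to 1.91% with A0309, and those intervals overlapped. The resident macrophages of A0309 were also the shallowest, at a median of 25233.5 counts against 28632 to 34926 with the other hashtags.

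The name fits part of the cells. Lyve1 and Cd163 were both counted in 78 of the 209 (37.3%), Lyve1 without Cd163 in 63, Cd163 without Lyve1 in 62, and neither in 6. The most frequent combination was Cd163, Cbr2 and Ccl8 without the other rule genes, in 50 cells. All 6 genes were counted in 32 cells, and Lyve1, Cbr2 and Ccl8 alone in 31. The general macrophage genes Csf1r and Adgre1 were not called different by the rule of size given below. Csf1r, the receptor of the macrophage growth factor, was at 1072 CPM (counts of a gene per 1e6 counts, summed over the cells of a class) against 831 in other macrophages. Adgre1, which encodes F4/80, was at 614 against 735 CPM.

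Summed over all 209 cells, markers of other cell types were low and mostly level with other macrophages. Lymphatic endothelial markers matter because lymphatic vessels also make Lyve1. Of 6 such markers, Flt4, Mmrn1 and Ccl21a had no count in the 209 cells, and Prox1 had 1 count. For Flt4 and Mmrn1 this allows up to 0.348 CPM each. Low counts of Ccl21a had been set to 0, its lowest count above 0 being 25, so that limit does not hold for it. The summed level of that list was 10.3 CPM (5.65 to 15.2 over hashtags) against 12.1 CPM, nearly all of it Pdpn. Fibroblast markers summed to 48.1 CPM (27.2 to 97.9) against 48.2. Dcn was at 0, which was largely set in advance. The macrophage gate holds Dcn and Lum low in both classes, and the lowest Dcn count above 0 was 68. Monocyte markers summed to 90.2 CPM (39.1 to 174) against 80.0, with Chil3 at 0. Dendritic cell markers summed to 36.6 CPM (27.7 to 45.1) against 11.2. Of that sum 21.6 CPM was Cd209a, a lectin gene that lies in the same cluster as Cd209d and Cd209f, and Ccr7 was at 0. Flt3, Zbtb46 and Xcr1 were at 2.21, 3.25 and 9.06 CPM against 0.658, 1.41 and 6.95, and Clec9a was level. In cells with 4 to 6 rule genes dendritic cell markers summed to 85.5 CPM, of which 67.1 CPM was Cd209a. Of those cells 15.2% had 2 or more of these markers, against 2.06% of other macrophages. Cd209a alone was counted in 35.4% of those cells. Xcr1 was counted in 21.1% of the 209 cells and 23.9% of other macrophages. Fibroblast markers summed to 84.8 CPM in cells with 4 to 6 rule genes and 32.1 CPM in cells with 3. Of the 84.8 CPM, 38.3 CPM was Col3a1, which was counted in only 0.957% of the 209 cells. The share of cells with 2 or more fibroblast markers went the other way, at 7.07% and 8.18%. The part of the dendritic cell markers and of the mitochondrial share in the results was not tested.

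In classes that should lack the rule, few cells met it. Of 3693 cells in a fibroblast gate, at a median of 35796 counts, 8 (0.217%) had at least 3 rule genes, and none of 1300 endothelial cells (up to 0.283%) or of 254 T cells (up to 1.44%) did. The T cells had a median of only 9943.5 counts. Single rule genes were counted in at most 3.54% of the cells of these gates, except Ccl8, which 28.5% of the fibroblasts carried. Lyve1 was at 39.2 CPM in the endothelial gate, from 1.85% of its cells, against 2.23 CPM in other macrophages.

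The 6 rule genes differed in how they spread over the cells. Cbr2, a carbonyl reductase, was counted in 96.2% of resident macrophages and 10.8% of other macrophages. Ccl8, a chemokine that attracts monocytes and other leukocytes, was counted in 89.5% against 7.63%. Lyve1 was counted in 67.5% against 2.06%, and Cd163 in 67.0% against 10.3%. Cd209f and Cd209d, C-type lectins of the mouse DC-SIGN family, were counted in 43.1% against 0.588% and in 29.7% against 0.418%. At least 1 of these lectins was seen in 83.8% of cells with 4 to 6 rule genes and in 12.7% of cells with 3, a difference that the split by number of rule genes largely fixes, since any cell with 5 or 6 must carry one.

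Just outside and just inside the threshold, the rule genes were counted in the following shares of cells. Cbr2 was counted in 76.4% of the 386 cells with 2 genes and 93.6% of the 110 with 3, Ccl8 in 52.8% and 83.6%, and Cd163 in 48.4% and 66.4%. Lyve1 was counted in 15.5% and 43.6%, and Cd209f in 4.40% and 9.09%.

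Summed levels of the rule genes varied over hashtags. Lyve1, on chromosome 7 of GRCm38 from 110850607 to 110863239, was at 591, 252, 575 and 72.3 CPM in A0309, A0310, A0311 and A0312. Cd163, on chromosome 6 from 124304656 to 124330527, was at 199, 174, 214 and 254 CPM in the same order. Cd163 was thus nearly even and highest in A0312, where Lyve1 was lowest. Cbr2, on chromosome 11 from 120729489 to 120732114, was at 996, 568, 913 and 272 CPM. Ccl8, on chromosome 11 from 82115185 to 82116799, was at 1003, 728, 2135 and 609 CPM. In other macrophages the pooled levels were 2.23 CPM for Lyve1, 10.9 for Cd163, 13.7 for Cbr2 and 21.4 for Ccl8.

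**Figure D2:**
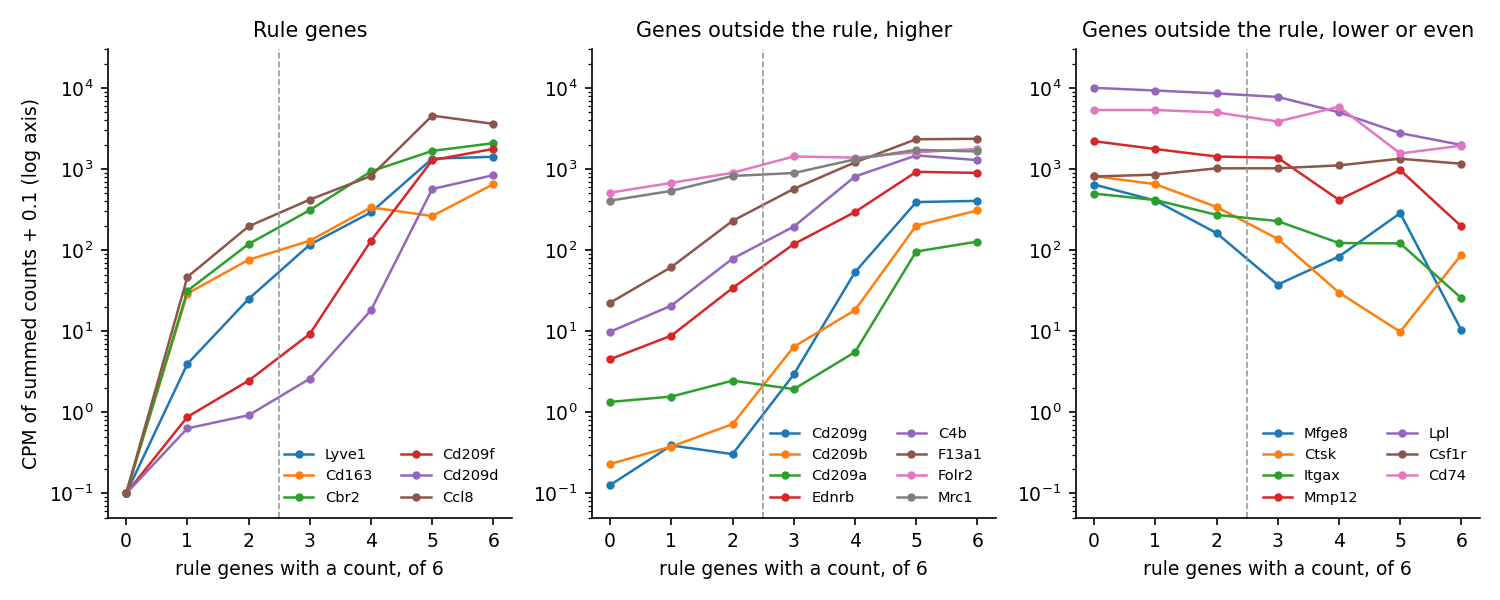
CPM plus 0.1 (log axis) of genes in gated macrophages by the number of rule genes with a count, with the dashed line at the threshold of the rule; left, the 6 rule genes; middle, genes outside the rule that lie higher; right, genes that lie lower or level. Cd209g goes from 2.83 CPM at 3 rule genes to 405 CPM at 6, while Folr2 goes from 1429 to 1773 CPM.

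A gene was called different from other macrophages by a rule of size, since there was nothing to test. The log2 ratio of CPM plus 1 had to be at least 1 in size, with one sign, in the pool and in each hashtag that held 20 or more cells of each class, and a gene needed 5 CPM in either class. Of 10609 genes so measured, 95 were called higher in resident macrophages (0.895%), 6 of them the rule genes, and 29 lower (0.273%). The median log2 ratio of all these genes was near 0. The cells were chosen on transcripts of the same table, so calls describe the set and do not support it. A call asks for the ratio in each hashtag, so a lack of overlap over hashtags partly follows from the call. The share of all genes without overlap was not counted.

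Lectins and scavenger receptors bind sugars and altered proteins for uptake. Of 14 such genes measured, 7 were called higher (Cd209g, Cd209b, Cd209a, Mgl2, Vsig4, Stab1 and Clec10a) and none lower, with a median log2 ratio of 1.51. Cd209g was at 124, 31.7, 102 and 50.7 CPM in A0309, A0310, A0311 and A0312, and at 0.0123 to 0.187 CPM in other macrophages, a log2 ratio of 6.18 (5.01 to 6.84 over hashtags). Cd209b was at 106, 33.0, 42.4 and 25.9 CPM against at most 0.541 CPM, a log2 ratio of 5.46 (4.49 to 6.12). In both genes every hashtag of the resident macrophages lay above every hashtag of the others, and A0309 was highest. Cd209a was lower in level, at 21.6 against 1.35 CPM, a log2 ratio of 3.26.

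Cd209a, Cd209d, Cd209b, Cd209f and Cd209g lie in a single stretch of chromosome 8 of GRCm38, from 3743397 to 4137707. Cd209f spans 4102787 to 4105835 on the minus strand and Cd209g spans 4134098 to 4137707 on the plus strand. The stretches upstream of their protein-coding transcripts are shown because both genes share a long run of upstream sequence. Cd209f is a rule gene, so its higher level in resident macrophages was set by the choice of cells. Both are from RefSeq's GRCm38.p6, 5′ to 3′ along the gene, and end 1 base before the first base of the GENCODE protein-coding transcript. The Cd209f stretch is chr8:4105836-4106014 on the minus strand and the Cd209g stretch is chr8:4134486-4134651 on the plus strand, the latter inside a retained-intron transcript of Cd209g. Capitals mark the longest run the printed stretches share, of 83 bases.
Cd209f: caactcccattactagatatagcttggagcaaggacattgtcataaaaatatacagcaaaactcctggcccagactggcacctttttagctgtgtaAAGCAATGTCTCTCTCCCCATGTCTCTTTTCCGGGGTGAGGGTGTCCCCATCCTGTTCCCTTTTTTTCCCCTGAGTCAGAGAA
Cd209g: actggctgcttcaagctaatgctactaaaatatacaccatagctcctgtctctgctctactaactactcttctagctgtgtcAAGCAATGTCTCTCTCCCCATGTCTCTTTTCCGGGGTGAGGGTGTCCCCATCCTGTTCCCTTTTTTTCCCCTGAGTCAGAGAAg

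Over the whole 250 bases before the RefSeq starts, Cd209f and Cd209g shared a run of 154 bases and were identical at 80.1% of 236 aligned bases. These RefSeq starts lie downstream of the GENCODE starts. The part of that run beyond the printed 83 bases is thus transcript sequence by GENCODE, wholly in Cd209f and nearly wholly in Cd209g. The other pairs among Cd209a, Cd209b, Cd209d, Cd209f and Cd209g shared runs of 7 to 12 bases and were 30.8 to 39.2% identical. The letters TGAGTCA, the AP-1 site, were found on either strand before 4.43% of 27025 genes. They begin 83 bases before the RefSeq start of Cd209f and 97 before that of Cd209g, and are not in the other 6 windows. In both genes they lie in the shared run near the end of the printed stretch, so closer to the GENCODE starts. The PU.1 core GAGGAA, present before 23.1% of genes, was found before Cbr2, Cd209d and Ccl8. The Maf recognition core TGCTGAC, present before 3.72%, was in none of the 8 windows looked at. A match of letters is a description and not a binding site. The transcripts of Cd209f and Cd209g also share 490 stretches of 31 bases, 39.5% of those of Cd209f and 43.0% of those of Cd209g, and the other pairs share none. Counts of these neighbours may therefore be split between them by the read assignment, and Cd209g is uncertain as a gene independent of the rule.

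Mgl2 and Clec10a encode lectins for galactose and N-acetylgalactosamine. Mgl2 was at 659, 53.2, 145 and 51.8 CPM in A0309, A0310, A0311 and A0312, against 18.0 to 66.8 CPM in other macrophages, a log2 ratio of 2.90 (1.17 to 3.28). The groups overlapped, since resident macrophages of A0310 and A0312 lay below the other macrophages of A0309. Against other macrophages of like depth Mgl2 had a log2 ratio of 2.002 in the pool and was not called. Stab1, a scavenger receptor, was at 689 against 216 CPM, and Vsig4, a receptor of complement fragments, at 46.6 against 6.20 CPM. Mrc1, the mannose receptor CD206, was at 1085 against 460.4 CPM and was not called, because its log2 ratio of 1.24 fell to 0.74 in A0312. It was called in cells with 4 to 6 rule genes, at 1.71, and also without A0312, at 1.42.

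Of 17 genes known from resident macrophages of other tissues, 9 were called higher (Ednrb, F13a1, Ltc4s, Fcna, Cd38, Wfdc17, Gas6, Fxyd2 and Folr2), 8 were not called and none was lower, with a median log2 ratio of 1.65. The list was written with earlier results of these cells known, so its direction is no independent evidence. Ednrb, an endothelin receptor, was at 329.7, 200.3, 446 and 156 CPM in A0309, A0310, A0311 and A0312, against 4.06 to 15.2 CPM, a log2 ratio of 5.13 (3.64 to 6.18). F13a1, the catalytic subunit of coagulation factor XIII, was at 1405, 805, 1216 and 503 CPM against 37.97 to 57.7 CPM, a log2 ratio of 4.46 (3.63 to 4.88). Neither gene overlapped between the classes in any hashtag.

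Ltc4s, which makes leukotriene C4, was at 214, 132, 216 and 77.4 CPM against 5.74 to 8.24 CPM, a log2 ratio of 4.34. Fcna, the soluble lectin ficolin A, was at 284, 253, 344 and 159 CPM against 11.8 to 20.1 CPM, a log2 ratio of 4.06. Both were lowest in A0312 and still above all other macrophages. Gas6, a ligand that bridges dying cells to Axl and Mertk, was at 346 against 61.0 CPM. Wfdc17, a small secreted protein, was at 1220.0 against 142 CPM, and Cd38, an NAD-consuming ectoenzyme, at 19.7 against 1.01 CPM.

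Folr2, the folate receptor beta, was broad. It was counted in 98.6% of resident macrophages and 82.8% of the others, and its level was 1469.5 against 570.4 CPM, a log2 ratio of 1.36 (1.03 to 1.87). Timd4, a phosphatidylserine receptor and marker of long-lived resident macrophages, was seen in 6.22% of the cells, against 0.287% of the others. Its level was 4.30 against 0.175 CPM, a log2 ratio of 2.17 (1.21 to 2.58 over hashtags). That level was under the minimum of 5 CPM, so Timd4 could not be called. Ccr2, the receptor of monocyte recruitment, was seen in 21.1% against 22.8%, at 80.0 against 72.9 CPM. The Ccr2 level ranged from 8.95 CPM in A0311 to 171 CPM in A0309. Folr2, Timd4 and Ccr2 were singled out after their values were seen. Selenop, a secreted selenium carrier, was at 7052 against 3948 CPM and was not called, at 0.46 to 1.09 over hashtags.

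**Figure D3:**
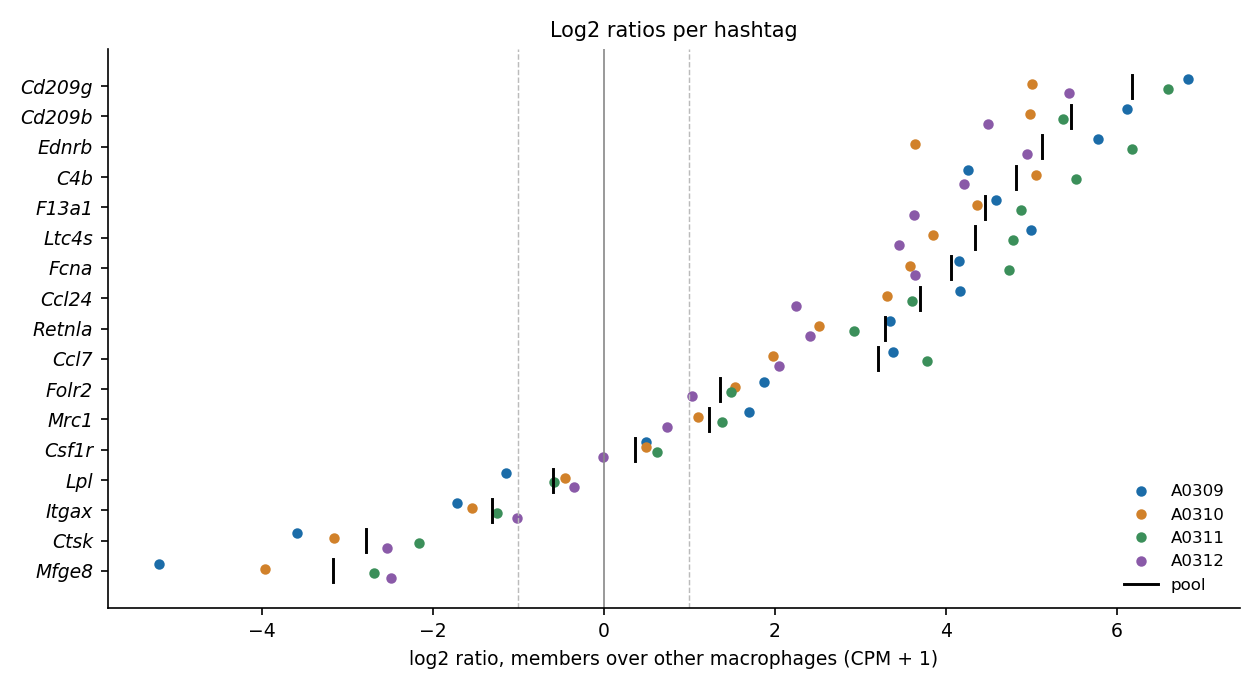
Log2 ratio of CPM plus 1, resident over other macrophages, for 17 genes outside the rule, with a point per hashtag and a bar for the pool; dashed lines mark the size of 1. Ednrb, C4b, F13a1, Ltc4s and Fcna lie above 3 in every hashtag, and Ctsk and Mfge8 below -2.

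Of 14 chemokine genes outside the rule, 3 were called higher (Ccl24, Ccl7 and Ccl2), 11 were not called and none was lower, with a median log2 ratio of 0.32. Ccl7 was at 609, 115, 281 and 90.9 CPM in A0309, A0310, A0311 and A0312, against 19.5 to 57.4 CPM, a log2 ratio of 3.20 (1.98 to 3.78). Ccl2 was at 652, 307.99, 456 and 255 CPM against 81.6 to 173 CPM, a log2 ratio of 2.01 (1.63 to 2.39). Both had their highest level in A0309 in either class, and no hashtags overlapped. Ccl24, which attracts eosinophils, was at 222, 39.9, 63.6 and 34.3 CPM against 3.13 to 11.4 CPM, a log2 ratio of 3.70. It was not called when cells with 2 rule genes were added, at 2.46 in the pool. Ccl12 had a pool ratio of 3.25 on the log2 scale but reached only 0.76 in A0312 and was not called. Ccl6 was at 3157 against 1917 CPM and was not called.

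Among 18 growth factors and secreted proteins, 2 were called higher, Retnla and Pdgfc, and none lower, with a median log2 ratio of 0.24. Retnla encodes a cysteine-rich protein of alternatively activated macrophages. It was at 10222, 658, 2416 and 1595 CPM in A0309, A0310, A0311 and A0312, against 1001, 114, 318 and 300.2 CPM, a log2 ratio of 3.29 (2.41 to 3.35). The groups overlapped across hashtags, since the resident macrophages of A0310 lay below the other macrophages of A0309. Within each hashtag the log2 ratio was at least 2.41. It was not called when cells with 2 rule genes were added, at 2.44. Pdgfc, a growth factor of mesenchymal cells, was at 32.7, 31.1, 67.3 and 31.8 CPM against 7.28 to 9.62 CPM. Pdgfc was not called for cells with 4 to 6 rule genes alone, at 2.53 in the pool. Apoe was at 8596 against 5368 CPM and was not called.

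Complement genes, whose products tag debris and microbes, were led by the classical and alternative pathway genes C4b and Cfb. Of 9 measured, 3 were called higher, C4b and Cfb among them, and none lower, with a median log2 ratio of 0.61. C4b was at 373, 501, 804 and 301.9 CPM in A0309, A0310, A0311 and A0312, against 14.1 to 18.6 CPM, a log2 ratio of 4.83 (4.21 to 5.52). It was counted in 75.6% of resident macrophages and 21.5% of the others. Cfb was at 16.6, 11.4, 49.9 and 23.4 CPM against 1.57 to 2.48 CPM, a log2 ratio of 3.12. For both genes A0311 was highest. C1qc was at 2978 against 1949 CPM and was not called.

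Of 13 genes of iron and heme handling, 2 were called higher, Cp and Tfrc. Cp, the ferroxidase ceruloplasmin, was at 29.5, 101, 41.0 and 35.04 CPM against 6.47 to 13.2 CPM, a log2 ratio of 2.04. It was not called against cells of like depth, at 1.29 in the pool. Tfrc, the transferrin receptor, was at 136, 122, 96.5 and 69.0 CPM against 27.8 to 35.3 CPM, a log2 ratio of 1.66. Tfrc was not called when the cells were thinned before the rule, at 1.88, or when cells with 2 rule genes were added, at 1.183. The ferritin light chain Ftl1 was level, at 14515 against 15699 CPM.

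None of 16 receptors of cytokines and chemokines and none of 20 transcription regulators was called in either direction. Their median log2 ratios were 0.15 and 0.17. Maf, a regulator tied to resident macrophages, reached 1.43 on the log2 scale in the pool but 0.76 in A0312, and was not called.

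Of 19 genes of the lipid-associated state, 2 were called lower, Itgax and Arg1, 17 were not called and none was higher, with a median log2 ratio of -0.60. Itgax, which encodes CD11c, was at 113, 163, 192 and 256 CPM in A0309, A0310, A0311 and A0312, against 375 to 516 CPM, a log2 ratio of -1.31 (-1.72 to -1.01). Every hashtag of the resident macrophages was below every hashtag of the others. Against cells of like depth the log2 ratio of Itgax was -0.61 and it was not called. Arg1 was low in both classes, at 7.89 against 18.5 CPM, and was not called against cells of like depth, at -0.33. Gpnmb was at 1192 against 3247 CPM and was not called, because its log2 ratio of -1.45 was -0.83 in A0312. Lpl, lipoprotein lipase, was at 6453 against 9779 CPM and was not called, but it was among cells with 4 to 6 rule genes, at -1.48.

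Of 16 lysosomal genes, Ctsk alone was called, lower, and the median was -0.10. Ctsk, a collagen-degrading cathepsin, was at 51.6, 109.6, 134 and 134 CPM in A0309, A0310, A0311 and A0312, against 604 to 985 CPM, a log2 ratio of -2.78 (-3.59 to -2.17). Ctsb was level, at 8476 against 8987 CPM. Of 12 genes of dead-cell uptake, Mfge8 alone was called, also lower, with a median of -0.37. Mfge8, which bridges phosphatidylserine on dying cells to integrins, was at 14.3, 40.6, 63.6 and 109.5 CPM against 416 to 650.0 CPM, a log2 ratio of -3.17 (-5.20 to -2.49). Neither Ctsk nor Mfge8 overlapped between the classes. Against cells of like depth the ratio of Mfge8 was -1.81 and it was not called. Mfge8 was counted in 1 of the 31 cells with 5 rule genes, with 205 counts, and in 1 of the 32 cells with 6, with 8 counts.

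Of 11 genes of MHC class II presentation and costimulation, Cd86 was called higher and none lower, and the median was -0.41. Cd86, the ligand of CD28 on T cells, was at 58.9, 50.7, 52.3 and 32.1 CPM against 12.1 to 15.2 CPM, a log2 ratio of 1.74. Against cells of like depth the ratio was 0.92 and Cd86 was not called. Cd74, the invariant chain, was at 3745 against 5329.7 CPM and was not called. Against cells of like depth Cd74 was called lower, at -1.27.

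**Figure D4:**
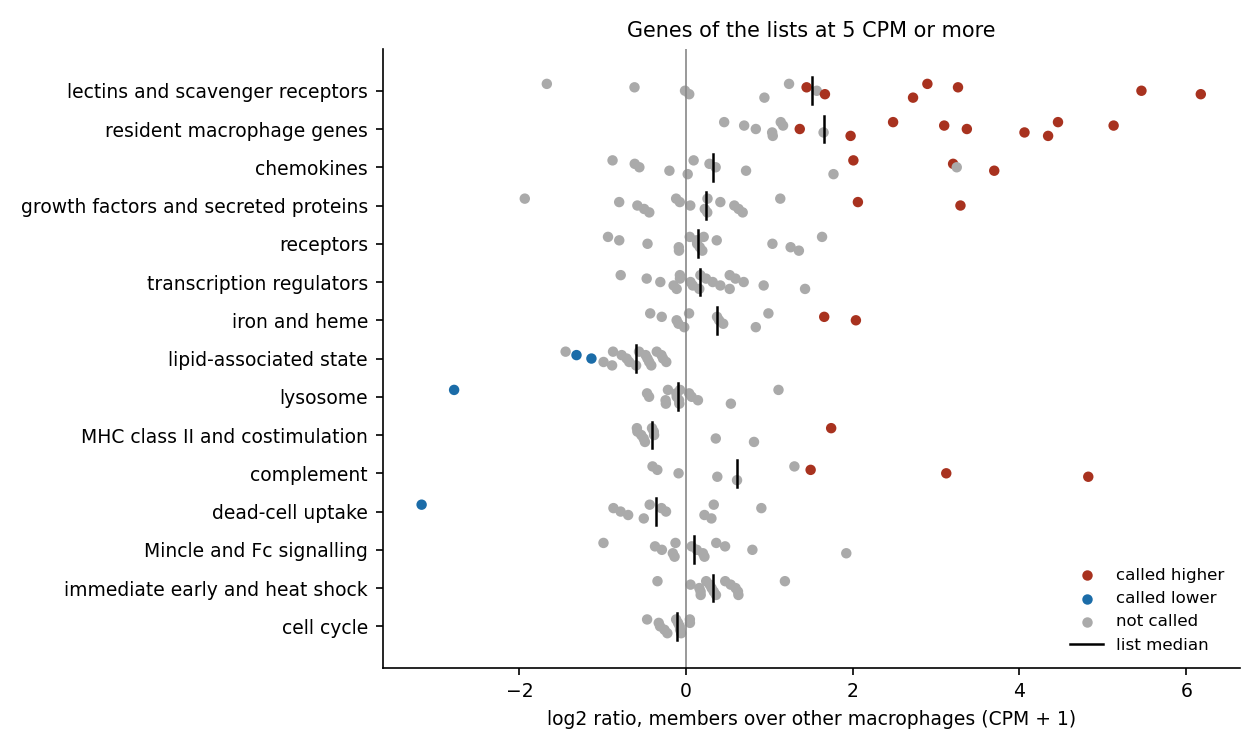
Log2 ratio of CPM plus 1, resident over other macrophages, for the genes of 15 lists at 5 CPM or more, with a bar at each list's median; red points were called higher and blue points lower. The medians run from -0.60 for the lipid-associated state to 1.65 for resident macrophage genes.

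The other lists held no call. None of 16 immediate early and heat shock genes was called, with a median log2 ratio of 0.32. Fos, which responds to dissociation of tissue, was at 2886 against 2293 CPM. None of 14 genes of Mincle and Fc receptor signalling was called, with a median of 0.10, and Fcer1g, the signalling chain of Mincle, was at 1354 against 1177 CPM.

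Clec4e itself was low in the resident macrophages, at 5.22 CPM (exact Poisson interval 3.81 to 6.99) against 5.95 CPM in other macrophages, a log2 ratio of -0.16. It was counted in 4.78% and 5.08% of cells. Over A0309, A0310, A0311 and A0312 the resident macrophages had 6.45, 17.7, 0 and 1.10 CPM, the count of 0 allowing up to 1.41 CPM. The other macrophages had 11.1, 15.9, 0.786 and 0.706 CPM. A0310 was highest and A0309 next in both classes. No genotype was read from these levels. Cells with 4 to 6 rule genes held 1 count of Clec4e in all, 0.383 CPM (0.00971 to 2.14), against 7.33 CPM in cells with 3.

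Of 12 cell cycle genes 0 were called, with a median log2 ratio of -0.11. Pcna was at 399 against 386 CPM. After thinning to 10000 counts, 25 of 182 resident macrophages (13.7%, 9.09 to 19.6) had at least 2 of 6 cycling genes counted, against 14.9% (14.1 to 15.8) of 7407 other macrophages. Thinning left out 27 and 250 shallower cells, and the unthinned shares were 18.7% and 24.4%. Over hashtags the thinned share was 22.2%, 11.8%, 4.08% and 15.6%, on 34 to 54 cells each. The share was 17.6% (10.8 to 26.4) among cells with 3 rule genes and 8.75% (3.59 to 17.2) among cells with 4 to 6, and these intervals overlap.

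Among genes at 20 CPM or more, the most negative called ratios were those of Hspb7, Gngt2, Sema4d, Gm35368, Sox4, Gpc1 and Mamdc2, besides Mfge8, Ctsk and Itgax. Hspb7, a small heat shock protein, was at 1.84, 1.90, 21.7 and 25.9 CPM in A0309, A0310, A0311 and A0312, against 33.4 to 93.1 CPM, a log2 ratio of -2.25. A0309 and A0310 were below A0311 and A0312, but at or near the level of 3 counts, 1.38 CPM in A0309 and 1.90 CPM in A0310. Gngt2, a G protein subunit, was at 13.2 against 55.8 CPM, and Sema4d, a semaphorin, at 10.8 against 41.1 CPM. Sox4, a transcription factor, was at 27.7 against 86.5 CPM. All 7 lost their call when cells with 2 rule genes were added, at log2 ratios of -0.84 to -1.15. Against cells of like depth Gpc1, Gm35368 and Mamdc2 were not called, at -0.39, -0.58 and -0.53.

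Within the set, the lectins separated the cells with more rule genes from those with 3. These values describe cells split by the rule itself. Cd209g was at 252 CPM in cells with 4 to 6 rule genes and 2.83 CPM in cells with 3. Cd209b was at 156 against 6.33 CPM and Cd209a at 67.1 against 1.83 CPM. In cells with 4 rule genes Cd209a was still at 5.43 CPM, against 96.1 and 127 CPM in cells with 5 and 6. The Cd209a level of cells with 3 genes was thus like the 2.36 CPM of cells with 2.

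Some genes outside the rule differed already below its threshold. F13a1 went from 22.4 CPM in macrophages with no rule gene through 61.8, 229, 569 and 1209 CPM with 1 to 4, to 2330.4 and 2361 CPM with 5 and 6. C4b went from 9.75 CPM with none to 195 with 3 and 1289 with 6. Folr2 changed little past the threshold, from 1429 CPM with 3 to 1773 with 6. In the downward direction Lpl went from 10029.9 CPM with none to 7743 with 3 and 1982 with 6. Ctsk went from 818 CPM with none to 138, 29.9, 9.74 and 87.9 CPM with 3, 4, 5 and 6, the values at 5 and 6 resting on 1 cell each. Ccr2 was at 92.7 and 106 CPM with 3 and 4 rule genes, and at 5.57 and 14.0 CPM with 5 and 6.

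The called genes were also read apart in cells with 3 and in cells with 4 to 6 rule genes. They were called on the sum of both groups, in which cells with 3 hold 6005522 of 8613100 counts. Passing in each group was thus partly set in advance and only describes the calls. In the pool of both groups 250 of 10609 genes reached a log2 ratio of 1 and 122 reached -1. Those shares were not counted for each group. Of the 89 genes called higher outside the rule, 80 passed a log2 ratio of 1 in the pool of cells with 3 rule genes, with a median of 1.57, and all 89 in cells with 4 to 6, with a median of 3.01. All 29 genes called lower did so in both, at medians of -1.59 and -2.19. Rnase2a, a secreted ribonuclease, was at 197 against 3.50 CPM between the groups, and C6, a complement component, at 82.5 against 6.99 CPM. Fn1, fibronectin, was at 23.8 against 152 CPM and Ccnb1, a mitotic cyclin, at 2.30 against 24.98 CPM. These were among the largest differences between the groups and were chosen after their values were seen.

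Set beside the extreme macrophage states of the same fat, the set differed in more genes. The lipid-associated range was the 766 other macrophages with the highest summed share of Gpnmb, Mmp12, Arg1 and Dcstamp, a range of a score and not a type, at a median of 76632 counts per cell. Against it, 286 of 10568 genes were called higher in resident macrophages (2.71%) and 110 lower (1.04%), around a median log2 ratio of 0.15 for all genes. The 286 include the 6 rule genes, and the 110 include Gpnmb, Mmp12 and Dcstamp of the score. Only 2 resident macrophages reached the score of that range, and their median score was 1.12 counts per 10000 against 15.4 in other macrophages.

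Of 17 resident macrophage genes 15 were called higher against the lipid-associated range, and of 13 chemokines 7. F13a1 was at 961 against 1.86 CPM, a log2 ratio of 8.39. Ccl4 and Ccl3, which attract several leukocytes, were at 86.6 against 12.3 and at 83.6 against 32.0 CPM. Among transcription regulators Maf, Id3 and Klf4 were called higher and Bhlhe40 lower, Maf at 383 against 35.1 CPM and Bhlhe40 at 37.0 against 97.2 CPM. The Fc receptor gene Fcgr2b was at 407 against 15.3 CPM. Lifr, a receptor of the interleukin-6 family, and Il4ra were called higher, at 40.3 against 3.92 and at 56.1 against 9.61 CPM. Of the 5 lipid-associated genes called lower, Itgax (187 against 1118 CPM) and Fabp5 (437 against 1345 CPM) had not been used in the score. Trem2 was at 1074 against 1936 CPM and was not called.

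The MHC class II high range was the 766 other macrophages with the highest summed share of H2-Aa, H2-Ab1, H2-Eb1 and Cd74, at a median of 22739 counts, and 2 cells were in both ranges. Against it, 121 of 10813 genes were called higher (1.12%) and 72 lower (0.666%). The 121 include the 6 rule genes, and the 72 include all genes of the score. Of the 7 presentation genes called lower, Ciita, H2-DMa and H2-DMb1 had not been used in the score, and the regulator Ciita was at 36.6 against 219 CPM. The inflammatory genes Il1b and Cxcl10 were at 5.34 against 93.4 and 3.72 against 63.8 CPM. Ccr2 was at 80.0 against 294 CPM and Cx3cr1 at 4.88 against 46.8 CPM, both called lower. Ednrb, Fcna, Ltc4s and Folr2 were called higher against this range too, Folr2 at 1469.5 against 195 CPM.

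Some genes of the resident profile were shared with the MHC class II high range. Mrc1 was at 1085 against 1047 CPM and Selenop at 7052 against 7061 CPM. Mgl2 and Cd209a, at 228 against 163 and 21.6 against 13.9 CPM, were not called. Of 12 cell cycle genes 3 were called higher against this range (Rrm2, Plk1 and Stmn1), and none against the lipid-associated range or other macrophages. The median log2 ratio of the 12 was 2.16 against this range and 0.79 against the lipid-associated range.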

How the data were processed

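Values were the deposited gene-by-cell counts of 1 pooled library (30084 genes, 15741 cells) and the deposited hashtag counts. Bowtie2 2.4.2, cutadapt 3.4, the build GRCm38 and the versions 4.1.2 and 3.6.3 of R were used per the submitters' processing notes, with no role stated. Hashtags were read from the cell names. Computed here with Python 3.11.15, NumPy 2.4.6, SciPy 1.17.1, pandas 2.3.3 and Matplotlib 3.10.9 were the gate, counts summed per class as CPM, log2 ratios with a pseudocount of 1 CPM, and exact 95% intervals (Poisson for levels, Clopper-Pearson for shares). With 1 pooled library and no pairing of hashtag and genotype, no test was possible. A count of 0 was given the limit of 3 counts, except in genes whose low counts had been set to 0. The calculation was tested on simulated data. Members and gene lists were chosen with earlier results of these data known. Named genes were the 6 of the rule, Clec4e, up to 4 called genes per list and its uncalled gene of highest CPM, and the 10 highest and 10 lowest called ratios at 20 CPM or more. Others are said to be chosen after their values were seen, which also holds for non-listed genes in the comparisons with the 2 score ranges and for the motifs. Alternatives changed the rule, depth, hashtags, pseudocount, filter and summary. Values of some named genes are not reported here.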

Additional observations from a re-analysis of the deposited data

How the results depend on the processing

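No paired test was run, since no result came from a test. The size rule itself compares the classes within each hashtag. A rule of at least 2 genes gave 595 cells (7.56% of macrophages), 61 genes higher and 5 lower than in other macrophages, and 200 higher than in the MHC class II high range. At least 4 genes gave 99 cells (1.26%), a cycling share of 8.75%, and higher and lower counts of 399 and 238 against other macrophages, 869 and 380 against the lipid-associated range, and 346 and 258 against the MHC class II high range. With at least 4 genes only A0309 and A0311 had the 20 cells the size rule asks for. Thinning to 10000 counts before the rule gave 116 cells (1.53%), 220 higher and 125 lower, 539 and 275 against the lipid-associated range, and 123 lower than in the MHC class II high range. A pseudocount of 5 CPM gave 59 and 10, 72 lower than in the lipid-associated range, and 61 and 43 against the MHC class II high range. Averaging over cells gave 64 lower than in other macrophages, and 501 and 238 against the lipid-associated range. A filter at 20 CPM gave 10 lower, 69 lower than in the lipid-associated range and 77 higher than in the MHC class II high range. Against other macrophages of like depth 63 genes were higher, 59 of them among the 95, and 26 lower, only 13 of them among the 29.

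Leaving out each hashtag in turn, which also drops its condition from the size rule, gave 145 to 171 cells, a share of 2.23 to 3.04% and a cycling share of 10.2 to 17.3%. Counts were 102 to 162 higher and 40 to 65 lower against other macrophages, 320 to 442 and 127 to 175 against the lipid-associated range, and 157 to 214 and 103 to 126 against the MHC class II high range. Without A0312 the counts were 162 and 65, 442 and 175, and 185 and 112. Without A0309 there were 45 lower than in other macrophages, and 190 and 126 against the MHC class II high range; without A0311 these were 46, 214 and 111. Of 36 named genes called, 18 were called under every alternative that gave them a value. These 18 include the 6 rule genes, which chose the cells, so their calls were set in advance. Outside the rule they include Cd209g, Ednrb, F13a1, Ltc4s, Fcna, C4b and Ctsk. Cd209g shares transcript stretches with the rule gene Cd209f. Ctsk has no value where genes with zeroed low values were left out. No called gene turned its sign. Uncalled genes near 0 did, such as Clec4e, at 0.30 with at least 2 rule genes, and Pcna, at -0.40 with at least 4. Where a cause is not given above, the cause was not tested.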

Other observations

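The genes below were called higher than in other macrophages and were chosen one by one after their values were seen, so they stand for no pathway. Alox5, the lipoxygenase that begins leukotriene synthesis upstream of Ltc4s, was at 63.1, 39.3, 46.6 and 15.3 CPM in A0309, A0310, A0311 and A0312, against 2.94 to 6.09 CPM, a log2 ratio of 2.91. Pla2g2d, a secreted phospholipase, was at 11.5 against 1.91 CPM, with log2 ratios between 1.93 and 2.14 over hashtags. In Alox5 every hashtag of the resident macrophages lay above every hashtag of the others.

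Ifitm3, a membrane protein induced by interferon, was at 725, 595, 791 and 514 CPM against 152 to 178 CPM, a log2 ratio of 1.95. Ly6e, another gene of that kind, was at 326, 185, 529 and 79.2 CPM against 19.9 to 23.1 CPM, a log2 ratio of 3.64. Ifi27l2a was at 1066 against 279 CPM and Ddx60 at 30.4 against 7.07 CPM. Tslp, a cytokine better known from epithelium, was at 31.8, 41.8, 53.7 and 27.7 CPM against 2.30 to 5.07 CPM. P2ry12, a purinergic receptor used as a marker of microglia, was at 43.7 against 6.77 CPM, a log2 ratio of 2.52.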
